A study of Mus musculus with 24 samples.

Results

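The transcripts described here are 36 genes of the ATF4 stress program and of amino acid supply, taken as a listed set: transcription factors, stress effectors, enzymes that make amino acids and one-carbon units, and amino acid transporters. Of the 36, 35 had a probe set that carries a single gene name, out of 18193 such genes in all, and where a gene had several the brightest on average was used. Pycr1, an enzyme of proline synthesis, has no value here.

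ATF4 is a bZIP transcription factor whose protein level is set mainly by translation. When kinases that sense amino acid shortage, endoplasmic reticulum stress, double-stranded RNA or haem shortage phosphorylate eIF2alpha, general translation falls and the ATF4 open reading frame is translated more. ATF4, usually paired with a C/EBP protein, then drives genes at C/EBP-ATF response elements, among them enzymes and transporters that restore amino acid supply, and T cells that leave quiescence depend on such supply for growth. The mRNA of Atf4 is therefore not a measure of its activity, and no protein was measured here.

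The cells were CD4+ T cells of C57BL/6 background from 2D2 mice, all transgenic for 1 T cell receptor. Plate-bound antibodies to CD3 and CD28 primed them for 48 h under Th1 conditions, with I-BET-762 or a control substance (DMSO or Control-768), and off the plates they expanded for 2 days. RNA came either from these cells directly (resting) or after 4 h on the same antibodies (activated), and it went through 2 rounds of amplification before labelling. I-BET-762 blocks the bromodomains with which BET proteins bind acetylated histones, and its comparison with the control substances asks how these transcripts depend on BET proteins.

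Each state had 4 groups of 3 arrays: DMSO, Control-768, 0.25 µM I-BET-762 and 0.5 µM I-BET-762. The concentration of Control-768 and whether the compounds stayed on during restimulation are not given in the sources used here. The 3 arrays of a group are described as biological replicates with no animal or culture named, so p-values measure the spread between these samples. Both states come from cultures that had already been stimulated once, so "resting" means rested after priming, not naive. All 7 markers of CD4 T cells averaged between 702 (Cd4 itself) and 8900 (Ifng) in intensity. Of the B cell markers 0 of 4 and of the NK cell markers 0 of 3 reached a mean of 64. Among markers of other cells, Cd8b1 averaged 553, Cd8a 81.9, the myeloid Csf1r 122.7 and the dendritic Zbtb46 128, and their part in the results was not tested. The summed CD8 markers spanned 412 to 632 in resting and 530 to 957 in activated cells. In such bulk RNA, fewer cells with a transcript and less of it per cell cannot be told apart.

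The promoters of these genes hold the response element core more often than most, and the matches are shown because they mark the genes that ATF4 could bind directly near the start. RefSeq windows (GRCm38.p6) from 250 bases before to 50 bases after an annotated start were given for 29 of the 35 measured members. TGATGNAA, searched on both strands, was present in 10 of the 29 (34.5%), against 468 of 14452 genes on the array with a window (3.24%) and 3.97% of all 32851 windows. The E-box CACGTG, a MYC-type site that reads the same on both strands, was present in 2 of the 29 (6.90%), Aldh18a1 and Nupr1, against 10.2% of the genes on the array. No match of one motif overlapped a match of the other in a member. The members were listed as known ATF4 genes, so the share is a description and not independent evidence. The 30 bases around each match follow 5' to 3' on the strand of the gene, with the match in capitals; a match that begins with TT is the core read from the opposite strand. All 10 are given, and the choice to show more than Trib3 and Vldlr was made after their values were seen.
Asns (chr6:7693214-7693243, minus strand): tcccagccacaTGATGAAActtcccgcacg
Atf3 (chr1:191183425-191183454, minus strand): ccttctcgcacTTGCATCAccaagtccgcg
Chac1 (chr2:119351038-119351067, plus strand): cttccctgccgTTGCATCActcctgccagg
Got1 (chr19:43524689-43524718, minus strand): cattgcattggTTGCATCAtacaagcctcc
Herpud1 (chr8:94386306-94386335, plus strand): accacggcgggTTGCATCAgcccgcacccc
Nupr1 (chr7:126625562-126625591, minus strand): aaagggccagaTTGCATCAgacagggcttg
Slc1a4 (chr11:20332699-20332728, minus strand): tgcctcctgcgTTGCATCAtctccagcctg
Slc7a11 (chr3:50443651-50443680, minus strand): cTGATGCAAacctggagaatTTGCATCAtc
Trib3 (chr2:152344028-152344057, minus strand): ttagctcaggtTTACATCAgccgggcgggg
Vldlr (chr19:27216809-27216838, plus strand): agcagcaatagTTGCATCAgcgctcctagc

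Of the 10 genes, 8 hold the core with C at its open position on either strand, written TGATGCAA or TTGCATCA. Asns carries TGATGAAA and Trib3 carries TTACATCA. The matches lie upstream of the start in Asns (positions -23 to -16), Atf3 (-110 to -103), Chac1 (-193 to -186), Got1 (-102 to -95), Herpud1 (-112 to -105), Nupr1 (-110 to -103) and Vldlr (-200 to -193). Slc7a11, the cystine importer, holds 2 matches (-66 to -40), the upstream one on its own strand and the downstream one on the opposite strand. In Slc1a4 the match spans the start itself (-4 to 4), and in Trib3 it lies in transcribed sequence (15 to 22).

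**Figure D1:**
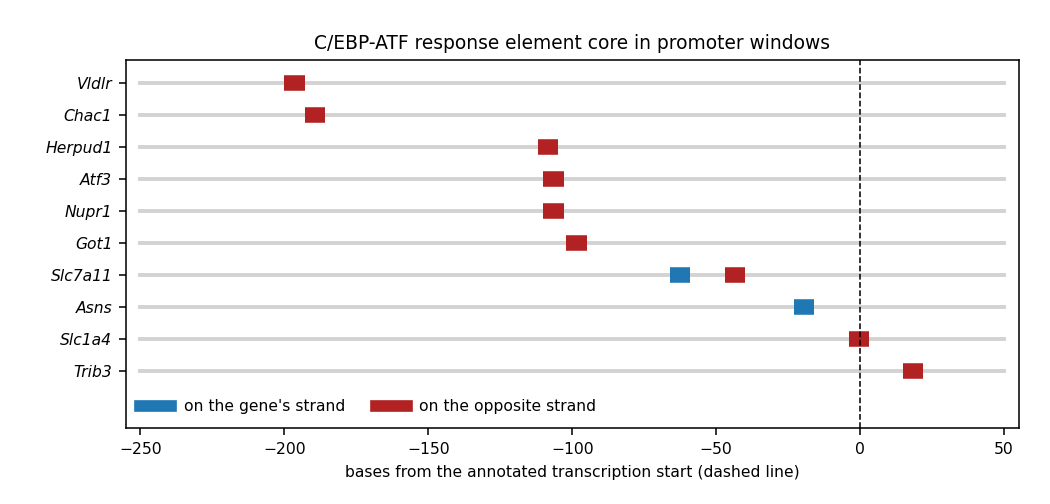
Positions of TGATGNAA, read on either strand, in the RefSeq promoter windows of the 10 measured members that hold it, in bases from the annotated start. Only Asns and the upstream match of Slc7a11 lie on the strand of the gene (blue), and most matches lie between 200 and 40 bases before the start.

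The transcripts were measured in the middle and upper range of the genes on the array. Phgdh, the first enzyme of serine synthesis from glucose, averaged 6568 in intensity over the 24 arrays, Ddit4, an mTORC1 inhibitor, 5739, Psat1 4841 and Atf4 4126. Slc7a11 alone averaged under 64, with 54.9 over the arrays and 34.5 to 83.5 between them, so little can be read from its changes. An intensity depends on the probes as well as on the transcript, so these levels set no order between genes. Within genes the swing over all arrays was largest for Cth, which makes cysteine from cystathionine (19.5 to 1437), and for Trib3, a pseudokinase that restrains ATF4 (47.2 to 1333). It was smallest for Got1, the cytosolic aspartate aminotransferase (1185 to 1847), and for Atf4 itself (3305 to 5215).

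**Figure D2:**
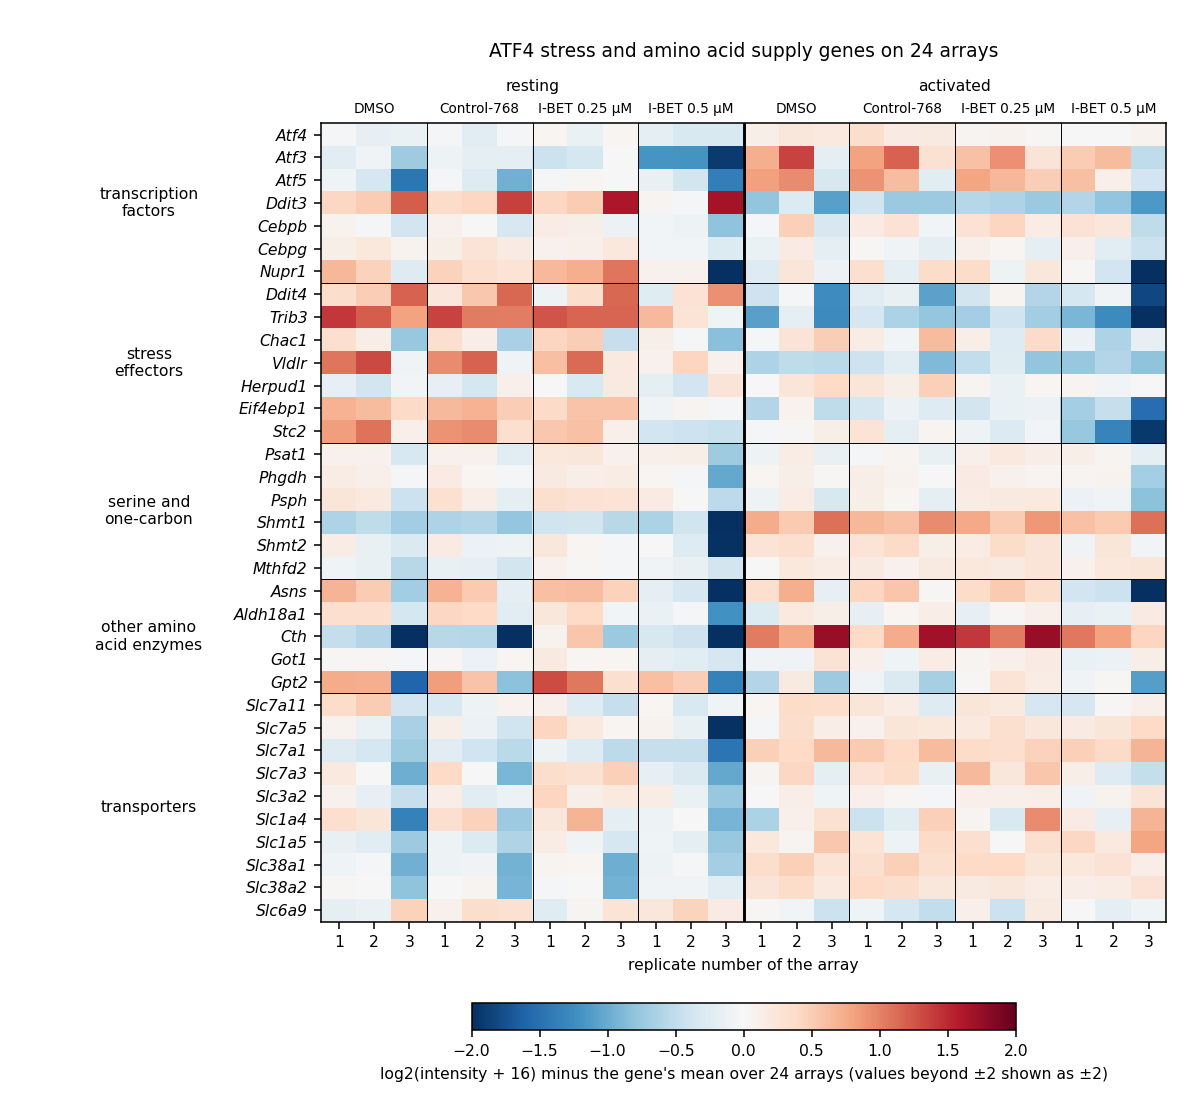
Each row is a gene and each column an array, with colour giving log2(intensity + 16) minus the mean of that gene over the 24 arrays. Trib3 and Ddit3 are high in resting and low in activated cells, Shmt1, Slc7a1 and Cth do the reverse, and the arrays numbered 3 of resting cells are lower (bluer) for many enzymes and transporters.

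The arrays numbered 3 stood apart from those numbered 1 and 2, and this touches every result below. Resting cells showed it most: 18 of the 35 members (51.4%) were lowest on array 3 in all 4 groups, against 15.1% of all genes. Ddit3, Ddit4 and Herpud1 were highest there in all 4 (8.57% of members, against 6.39% of genes). The median member lay -0.49 from the mean of arrays 1 and 2 on the log2 scale, and the median gene -0.03. In activated cells 9 members (25.7%, against 11.7% of genes) were lowest on array 3 in all 4 groups, with the median member at -0.15. There 4 were highest on array 3 in all 4 groups (11.4%, against 8.3% of genes). In both states the share of members highest on array 3 was near that of all genes.

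Cth showed this most strongly, at 294, 274 and 27.4 on arrays 1, 2 and 3 of resting DMSO cells, 279, 274 and 45.3 in Control-768, 436, 619 and 242 in 0.25 µM, and 329, 309 and 19.5 in 0.5 µM. Array 3 was the lowest of each group. Ddit3, which encodes the stress factor CHOP, ran the other way in resting cells, at 660, 709 and 1166 in DMSO and 639, 661 and 1302 in Control-768. It was also highest on array 3 with 0.25 µM (663, 707 and 1544) and with 0.5 µM (511, 484 and 1599). The lowest values of the set came from array 3 of resting cells in 0.5 µM, where Asns reached 219 against 1717 and 1546, Shmt1 188 against 852 and 1009, and Nupr1 11.9 against 177 and 179. The sources used here do not say what the numbers 1 to 3 stand for. Same-numbered arrays of 1 state deviated together in all 36 pairs (correlations of 0.155 to 0.699 across genes, which are not independent replicates). Comparisons within a state are therefore also given with the number as a block, where that changes a call.

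On restimulation for 4 h in Control-768, 4 of the 35 members rose and 5 fell (9 called, 25.7%), while 20.1% of all genes were called in this comparison. The rises were Shmt1, Slc7a1, Mthfd2 and Atf4, and the falls were Trib3, Ddit3, Vldlr, Eif4ebp1 and Slc6a9. A further 9 members had an unadjusted p under 0.05, which makes 18 of the 35, while 5608 of the 18193 genes reached it. The median change was 0.09 on the log2 scale, against -0.03 for all genes. With the replicate number as a block over both states, 16 members were called, against 25.4% of all genes. Without all arrays numbered 3, 18 were called, against 27%. How often members and genes at large changed thus depended on the fit, and the shares were not compared by a test. Here and below a gene is called changed at a Benjamini-Hochberg adjusted p under 0.05 over all genes in limma, changes are differences of log2(intensity + 16), which compress those of dim genes, and errors are standard errors (SE).

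Among transcription factors, Atf4 read 4030.5, 3533 and 3999.5 on the 3 resting Control-768 arrays and 5215, 4610 and 4632 on the activated ones. The groups did not overlap, and Atf4 rose by 0.32 ± 0.09 (adjusted p = 0.0160). Ddit3 went from 639, 661 and 1302 to 371, 289 and 291, with every resting array above every activated one, and changed by -1.34 ± 0.39 (adjusted p = 0.0193). Atf3, a stress-induced bZIP factor, was at 0.93 ± 0.34 (adjusted p = 0.0622), and Atf5, a relative of ATF4 that is also under translational control, at 0.85 ± 0.40 (adjusted p = 0.152); neither passed. Cebpb, Cebpg and Nupr1 lay between -0.25 and 0.21.

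Of 7 stress effectors, 3 fell and 0 rose. Trib3 read 1275, 1019.5 and 1006 in resting and 384, 309 and 278 in activated cells, a gap far wider than the spread in either group. It changed by -1.72 ± 0.37 (adjusted p = 0.00242). Eif4ebp1, which encodes a repressor of cap-dependent translation, went from 3130.5, 3220 and 2795 to 1572, 1835.5 and 1656. All resting arrays lay above all activated ones, and the change was -0.85 ± 0.20 (adjusted p = 0.00550). Vldlr, a lipoprotein receptor, went from 225, 268 and 104 to 78.0, 90.8 and 52.15, with the lowest resting array just above the highest activated one, and changed by -1.20 ± 0.32 (adjusted p = 0.0120). Ddit4 (-1.12 ± 0.44, adjusted p = 0.0835) and Stc2, a secreted glycoprotein (-0.67 ± 0.25, adjusted p = 0.0699), did not pass. Herpud1, which acts in degradation at the endoplasmic reticulum, was at 0.42 ± 0.16 (adjusted p = 0.0821), and Chac1, which degrades glutathione, at 0.29 ± 0.33.

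Of 6 serine and one-carbon enzymes, Shmt1 and Mthfd2 rose. Shmt1, the cytosolic serine hydroxymethyltransferase, went from 861, 887 and 770 to 2124, 2004 and 2579. Activated arrays all exceeded resting ones by far more than the spread, and the change was 1.39 ± 0.37 (adjusted p = 0.0110). Mthfd2, a mitochondrial folate enzyme, went from 3459.5, 3412 and 2943 to 4337, 4046 and 4330, again without overlap, and rose by 0.37 ± 0.12 (adjusted p = 0.0298). The mitochondrial Shmt2 was at 0.27 ± 0.31, and Phgdh, Psat1 and Psph, which make serine, lay between -0.09 and 0.00. Among the 5 other enzymes none passed. Cth went from 279, 274 and 45.3 to 552, 705 and 1373, apart on every array, with a change of 2.25 ± 0.79 (adjusted p = 0.0505), and Asns, the asparagine synthetase, was at 0.00 ± 0.56.

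Of 10 transporters 1 rose and 1 fell. Slc7a1, which imports arginine and lysine, read 2726, 2413 and 2189 in resting and 4567, 4193 and 4926 in activated cells. The groups were well apart and it rose by 0.90 ± 0.20 (adjusted p = 0.00339). Slc6a9, a glycine transporter, went from 140, 170 and 165 to 123, 99.1 and 88.5, also apart, and changed by -0.55 ± 0.19 (adjusted p = 0.0478). Slc38a1 and Slc38a2, which import glutamine and other small neutral amino acids, were at 0.75 ± 0.27 and 0.62 ± 0.25 (adjusted p = 0.0610 and 0.0927). Slc1a5, another glutamine carrier, was at 0.51 ± 0.22 (adjusted p = 0.106), and Slc7a5 and Slc3a2, the chains of the importer of large neutral amino acids, at 0.31 ± 0.34 and 0.09 ± 0.18. Slc7a3 and Slc1a4 did not pass either, with mean intensities of 199 and 159 in resting and 241 and 145 in activated cells.

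The calls for Trib3, Slc7a1 and Eif4ebp1 in Control-768 held under all 15 alternatives. Leaving out 1 array ended the call of Atf4 (resting 2, adjusted p = 0.0863; activated 1, 0.0790), Shmt1 (activated 3, 0.0508) and Ddit3 (resting 3, 0.109; activated 2, 0.0584; activated 3, 0.0667). It also ended that of Mthfd2 (resting 3, 0.132; activated 1, 0.0803; activated 3, 0.0917), of Vldlr (resting 1, 0.0551; resting 2, 0.0708; activated 3, 0.0699) and of Slc6a9 (any array but activated 1, 0.0563 to 0.182). Without all arrays numbered 3, 27% of genes and 18 members were called, 8 of the 9 among them and Slc6a9 not. Those 18 add rises of Atf3 (1.14 ± 0.19), Atf5 (0.91 ± 0.17), Cth (1.13 ± 0.19), Slc38a1 (0.49 ± 0.09), Slc38a2 (0.35 ± 0.08) and Herpud1 (0.44 ± 0.14). They add falls of Stc2 (-0.88 ± 0.18), Gpt2, which makes alanine (-0.89 ± 0.21), Slc1a4 (-0.72 ± 0.23) and Aldh18a1, which starts proline synthesis (-0.47 ± 0.14). Probe set choice mattered for 4 calls: Vldlr was at -0.13 (adjusted p = 0.786) without probe sets that can match several transcripts, and averaging all probe sets of a gene ended the calls of Vldlr (0.0675), Ddit3 (0.179), Atf4 (0.577) and Slc6a9 (0.353). Quantile normalization ended those of Mthfd2 (0.0607) and Slc6a9 (0.202), adding 1 in place of 16 that of Slc6a9 (0.0589), and fitting only the groups compared those of Mthfd2 (0.0721), Atf4 (0.114) and Vldlr (0.0580). Other probe sets of the called genes moved the same way in 16 of 18 cases, the exceptions being a dim one of Atf4 (mean 11.5, -0.25) and the other one of Slc6a9 (mean 73.6, 0.05).

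The same comparison was made in the other 3 culture conditions, with no array in common. The 4 comparisons are still not independent: they share 1 estimate of the spread per gene, and same-numbered arrays of a state deviated together. In DMSO 10 members were called (6 higher, 4 lower; 20.9% of all genes), in 0.25 µM I-BET-762 6 (2 higher, 4 lower; 14.5%), and in 0.5 µM 13 (8 higher, 5 lower; 23.3%). Rises of Shmt1 and Slc7a1 and falls of Ddit3, Trib3, Vldlr and Eif4ebp1 were called in all 4 conditions. Of these 6, Vldlr lost its call in each condition without probe sets that can match several transcripts (-0.13 in Control-768, -0.03 in DMSO, -0.09 in 0.25 µM and 0.29 in 0.5 µM). With all probe sets of a gene averaged, Vldlr (adjusted p = 0.0675 to 0.342) and Ddit3 (0.0659 to 0.179) lost it in each condition, and the changes of Ddit3 became -0.74, -0.75, -1.03 and -0.76 in the same order. The 6 make up 66.7% of the list of Control-768, 60% of that of DMSO, all of that of 0.25 µM and 46.2% of that of 0.5 µM. The sign was positive in all 4 conditions for 17 members, negative for 11 and mixed for 7.

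Trib3 showed the largest fall of the members in each condition, by -2.0 in DMSO, -1.79 in 0.25 µM and -2.0 in 0.5 µM. Its activated arrays read 222, 423 and 192 in DMSO, 298, 367 and 296 in 0.25 µM, and 250, 194 and 47.2 in 0.5 µM, all under the lowest resting array of their condition. Slc7a1 rose by 0.94 in DMSO, 0.68 in 0.25 µM and 1.30 in 0.5 µM, and Shmt1 by 1.39, 1.14 and 1.99. The wider change of Shmt1 in 0.5 µM goes with the 1 low resting array at 188: without the arrays numbered 3 it was 1.07 ± 0.12.

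Some members passed in only some conditions. The 4 activation responses were not compared pair by pair. The pooled interaction given below, both concentrations against both controls, called 0 members. Atf3 passed in 0.5 µM alone (1.65 ± 0.34, adjusted p = 0.00142), going from 270, 268 and 156 to 910, 995 and 440. Its changes of 0.96, 0.93 and 0.86 in DMSO, Control-768 and 0.25 µM did not pass (adjusted p = 0.0511, 0.0622 and 0.101), with resting arrays between 382 and 628. Slc1a5 passed in DMSO (0.64) and 0.5 µM (0.80), Cth in DMSO (2.64) and 0.5 µM (2.21), Slc7a5 (0.95) and Stc2 (-0.93) in 0.5 µM. Without resting array 3 of the condition, Cth was at 1.71 in DMSO and 1.13 in 0.5 µM, and Slc7a5 at 0.31. Atf4 and Mthfd2 passed in every condition but 0.25 µM, where they were at 0.07 and 0.18.

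**Figure D3:**
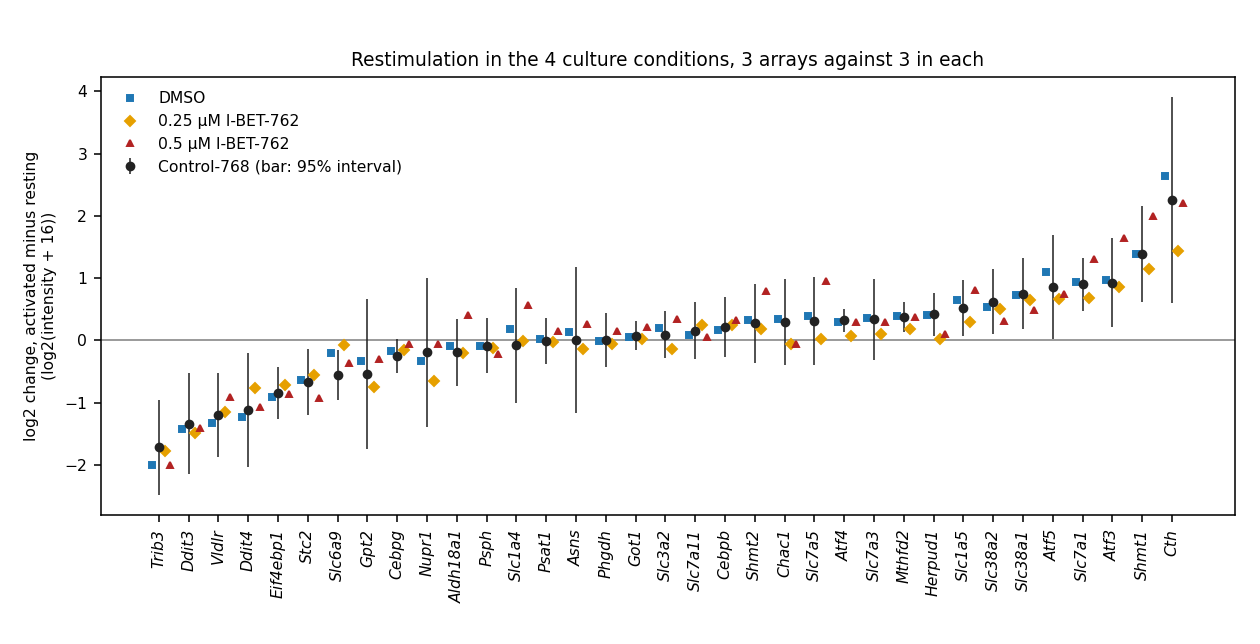
Change on restimulation of each gene under the 4 culture conditions, as activated minus resting in log2(intensity + 16), with genes in the order of their change in Control-768 and bars giving its 95% interval. Trib3, Ddit3 and Vldlr sit at the left and have negative changes under all conditions. Slc7a1, Atf3, Shmt1 and Cth sit at the right and have positive changes under all conditions, though not all of these were called.

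Many calls in these 3 conditions rested on single arrays. In DMSO, leaving out 1 array ended the call of Atf4 (resting 2 and 3, activated 2 and 3; adjusted p = 0.0772 to 0.0917), Ddit3 (resting 3, 0.0654, and activated 3, 0.0652) and Shmt1 (activated 3; 0.0550). It ended there that of Mthfd2 (resting 3, activated 2 and 3; 0.0709 to 0.149), Slc1a5 (resting 2 and 3, activated 1 and 3; 0.0536 to 0.188) and Cth (resting 3, activated 1 and 3; 0.0519 to 0.142). In 0.25 µM it ended those of Shmt1 (any array; 0.0613 to 0.142), Slc7a1 (any but resting 1; 0.0518 to 0.118), Eif4ebp1 (resting 2 and 3, activated 1 and 3; 0.0547 to 0.0922), Ddit3 (resting 3 and activated 3; 0.0911 and 0.0569) and Vldlr (resting 2, activated 1 and 3; 0.0562 to 0.103).
In 0.5 µM it ended those of Vldlr (any array; 0.0620 to 0.134), Atf4 (resting 2 and 3, activated 3; 0.0619 to 0.0824), Mthfd2 (resting 3, activated 2 and 3; 0.0552 to 0.112) and Ddit3 (both arrays 3; 0.0637 and 0.0955). There it also ended those of Slc7a5 and Cth (resting 3 and any activated array; 0.0695 to 0.294 and 0.0897 to 0.321), Slc1a5 (both arrays 3; 0.0698 and 0.0710) and Stc2 (activated 3; 0.0959). No single array ended the call of Trib3 in any of the 4 conditions, nor those of Atf3, Shmt1, Slc7a1 and Eif4ebp1 in 0.5 µM. Fitting only the groups compared did end those of Trib3 (0.0656), Shmt1 (0.0863) and Eif4ebp1 (0.0985) in 0.5 µM, and leaving out all arrays numbered 3 ended that of Eif4ebp1 there (0.0555). Without resting array 3 alone, the change of Shmt1 in 0.5 µM was 1.25 and that of Ddit3 -0.86.

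I-BET-762 at 0.5 µM lowered Stc2, in resting and in activated cells. Stc2, stanniocalcin 2, is a secreted glycoprotein known as an ATF4 target. In resting cells its arrays read 341, 354 and 223 in Control-768 and 130, 129 and 124 in 0.5 µM, so all treated arrays lay under all controls and close together. The change was -1.14 ± 0.25 (adjusted p = 0.0238). In activated cells they read 215, 153 and 184 in Control-768 and 96.9, 60.1 and 34.1 in 0.5 µM, again apart, with a change of -1.39 ± 0.25 (adjusted p = 0.00703). That treated group averaged 63.7, a dim level at which the size of a change is uncertain. Over the alternatives the change lay between -1.68 and -0.98. Stc2 was the only member called in either comparison, in which 1.39% and 0.748% of all genes were called. The arrays of 0.25 µM read 263, 272 and 189 in resting and 162, 143 and 169 in activated cells, with changes of -0.31 ± 0.25 and -0.19 ± 0.25. DMSO arrays read 325, 392 and 191 in resting and 171, 180 and 191 in activated cells, within or close to the range of Control-768.

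With the 2 concentrations pooled against both controls, Stc2 changed by -0.70 ± 0.18 in resting (adjusted p = 0.0485) and -0.79 ± 0.18 in activated cells (adjusted p = 0.0311), again as the only member called, against 1.85% and 1.19% of all genes. A second probe set of Stc2 gave -1.28 and -1.37 for 0.5 µM in resting and activated cells, and another -0.38 and -0.22. Leaving out activated Control-768 array 1 ended the call for Stc2 at 0.5 µM in activated cells (adjusted p = 0.0556). The resting one was lost without Control-768 array 1 (0.124) or 2 (0.133) or any 0.5 µM array (0.0516 to 0.0870). The pooled calls were lost without all but resting DMSO and Control-768 arrays 3 (0.0616 to 0.153), and without all but activated Control-768 array 2 and 0.5 µM array 1 (0.0565 to 0.101).

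With the replicate number as a block within each state, which the deviations of same-numbered arrays bear out, 4 more members were called at 0.5 µM in resting and 2 more in activated cells. All were lower, and 5.54% and 3.37% of all genes were called. In resting cells these were Atf3 (adjusted p = 0.000903), Aldh18a1 (0.00535), Asns (0.0305) and Eif4ebp1 (0.0456), and in activated cells Chac1 (0.0233) and Trib3 (0.0447); Stc2 was called in both (0.00251 and 0.000729). Pooled over concentrations the block added Atf3 in resting (-0.60 ± 0.14, adjusted p = 0.0166; 5.68% of genes called) and Chac1 in activated cells (-0.35 ± 0.09, adjusted p = 0.0349; 4.19%).

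Asns was the member with the largest difference at 0.5 µM in resting cells. Its arrays read 3155, 2805 and 1701 in Control-768 and 1717, 1546 and 219 in 0.5 µM, so the highest treated array lay just above the lowest control, both carrying the pattern of the numbers. Within numbers 1, 2 and 3 the changes were -0.87, -0.85 and -2.87, and their mean of -1.53 ± 0.56 did not pass without the block (adjusted p = 0.262). In activated cells the arrays read 2641.5, 2882 and 1989 in Control-768 and 1491, 1448 and 480 in 0.5 µM, with no overlap, and the changes within numbers were -0.82, -0.99 and -2.01. Their mean, -1.27 ± 0.56, passed neither without (adjusted p = 0.556) nor with the block (0.0988). Without the arrays numbered 3, Asns was called in both states (-0.86 ± 0.13, adjusted p = 0.00357, and -0.90 ± 0.13, adjusted p = 0.00401), among 4.07% and 2.75% of all genes; Stc2 was called in both too, and Atf3 (-1.05 ± 0.19) and Vldlr (-0.80 ± 0.19) in resting cells. At 0.25 µM its resting arrays read 2964, 2984 and 2689 and its activated ones 2524, 2813 and 2499, none of them under the lowest control array. The other probe set of Asns gave -1.43 and -1.22 at 0.5 µM in the 2 states.

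Atf3 in resting cells read 588, 558 and 550 in Control-768 and 270, 268 and 156 in 0.5 µM. All treated arrays lay far under all controls, and the changes within numbers were -1.08, -1.02 and -1.72. The mean, -1.27 ± 0.34, did not pass without the block (adjusted p = 0.0748). In activated cells the values of 910, 995 and 440 against 1123, 1455 and 790 overlapped, with a change of -0.55 ± 0.34 (adjusted p = 0.785). Trib3 was lower at 0.5 µM within every number of both states: -0.71, -0.77 and -1.11 in resting cells and -0.59, -0.63 and -2.22 in activated ones. Its means of -0.87 ± 0.37 and -1.14 ± 0.37 did not pass without the block (adjusted p = 0.383 and 0.249).

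**Figure D4:**
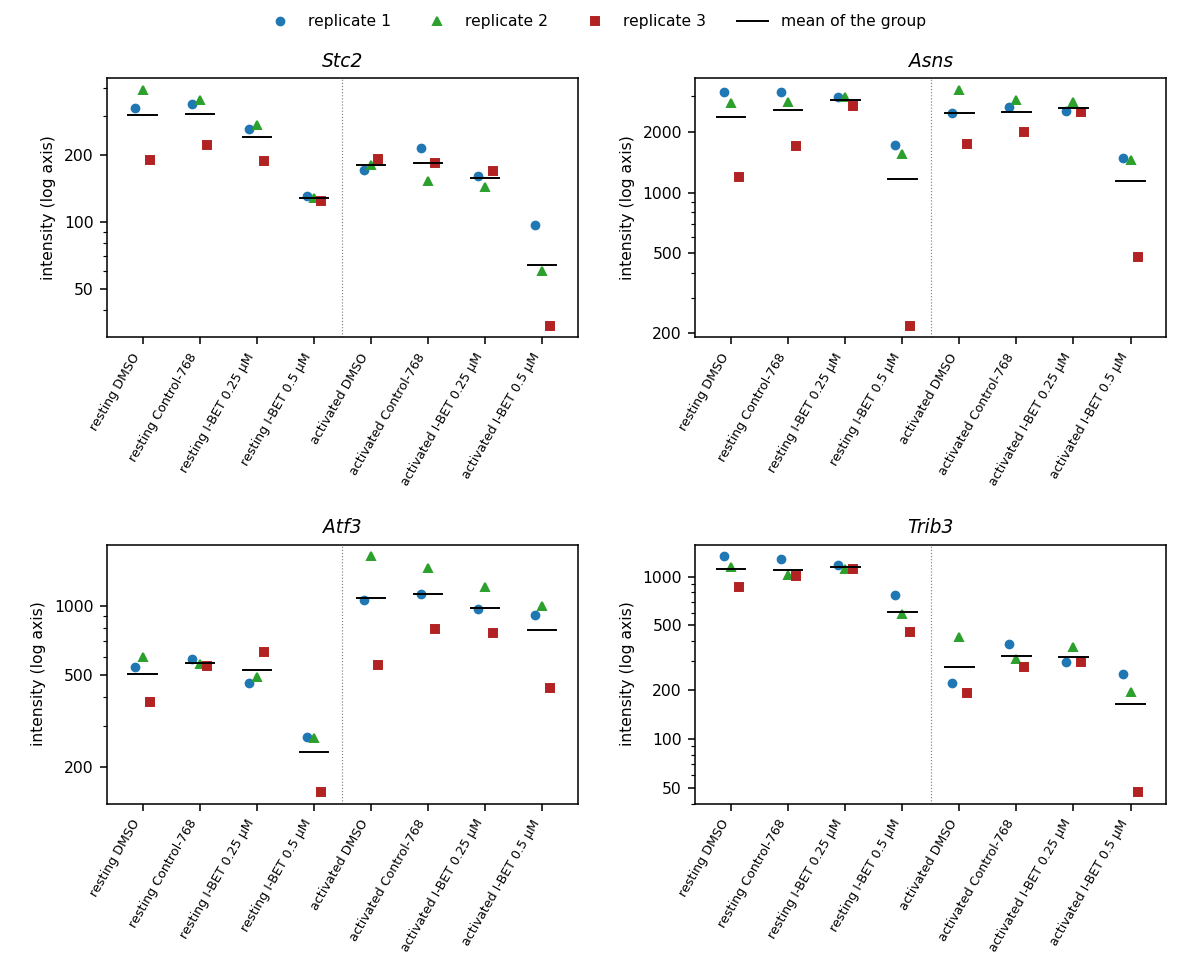
Intensity of Stc2, Asns, Atf3 and Trib3 on each array of the 8 groups, on a log axis, with symbols for the replicate number and a line at the mean of each group. The group means of all genes shown are lowest in 0.5 µM within each state, though the activated arrays of Atf3 overlap those of other groups. Array 3 gives the lowest point of most groups.

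Aldh18a1 in resting cells read 2494, 2453 and 1596.5 in Control-768 and 1707, 1838 and 797 in 0.5 µM, lower within every number (-0.54, -0.41 and -0.99) though the groups overlapped. In activated cells the change was -0.05 ± 0.26. Eif4ebp1 read 3130.5, 3220 and 2795 in resting Control-768 cells and 1891, 2060 and 1952 in 0.5 µM, without overlap, with changes of -0.72, -0.64 and -0.51 within numbers. In activated cells its changes were -0.34, -0.35 and -1.25, and their mean of -0.65 ± 0.20 did not pass with the block (adjusted p = 0.0541). Chac1 in activated cells read 238, 205 and 340 in Control-768 and 195, 134 and 189 in 0.5 µM, with changes of -0.27, -0.56 and -0.80.

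Across the set, differences at 0.5 µM leaned to lower values, while few passed. In resting cells 30 of the 35 members were below Control-768 and the median was -0.29, against 0.00 for all genes. The median within numbers was -0.18, -0.12 and -0.44, and 22 members were lower and 0 higher in all 3. The share of all genes with the same sign in all 3 numbers was not computed, here or below. Such counts therefore have no background to be set against. In activated cells 26 members were lower with a median of -0.18 (-0.17, -0.12 and -0.20 within numbers), and 17 were lower and 4 higher in all 3; the 4 were the transporters Slc7a5, Slc1a4, Slc1a5 and Slc6a9. By role, the median in resting cells was -0.48 for stress effectors, -0.30 for serine and one-carbon enzymes, -0.29 for other enzymes, -0.24 for transcription factors and -0.10 for transporters. In activated cells it was -0.54, -0.10, -0.09, -0.22 and 0.03 in the same order. The 10 members with TGATGNAA in their window had medians of -0.42 and -0.41 at 0.5 µM in resting and activated cells, and the 19 without it -0.24 and -0.13; these are descriptions with no test.

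Atf4 mRNA was at -0.18 ± 0.09 in resting and -0.21 ± 0.09 in activated cells at 0.5 µM (adjusted p = 0.508 and 0.548), with 95% intervals of -0.37 to 0.01 and -0.40 to -0.02. Nupr1, a stress-induced chromatin protein, was at -1.21 ± 0.57 in resting cells, and the arrays numbered 3 carried most of it: -0.38, -0.25 and -2.99 within numbers. Shmt2 (-0.18, -0.14 and -1.87), Slc7a5 (-0.06, -0.02 and -1.58) and Shmt1 (-0.01, 0.18 and -1.95) showed the same form. For these 4 genes the difference is mostly 1 array of resting cells in 0.5 µM.

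**Figure D5:**
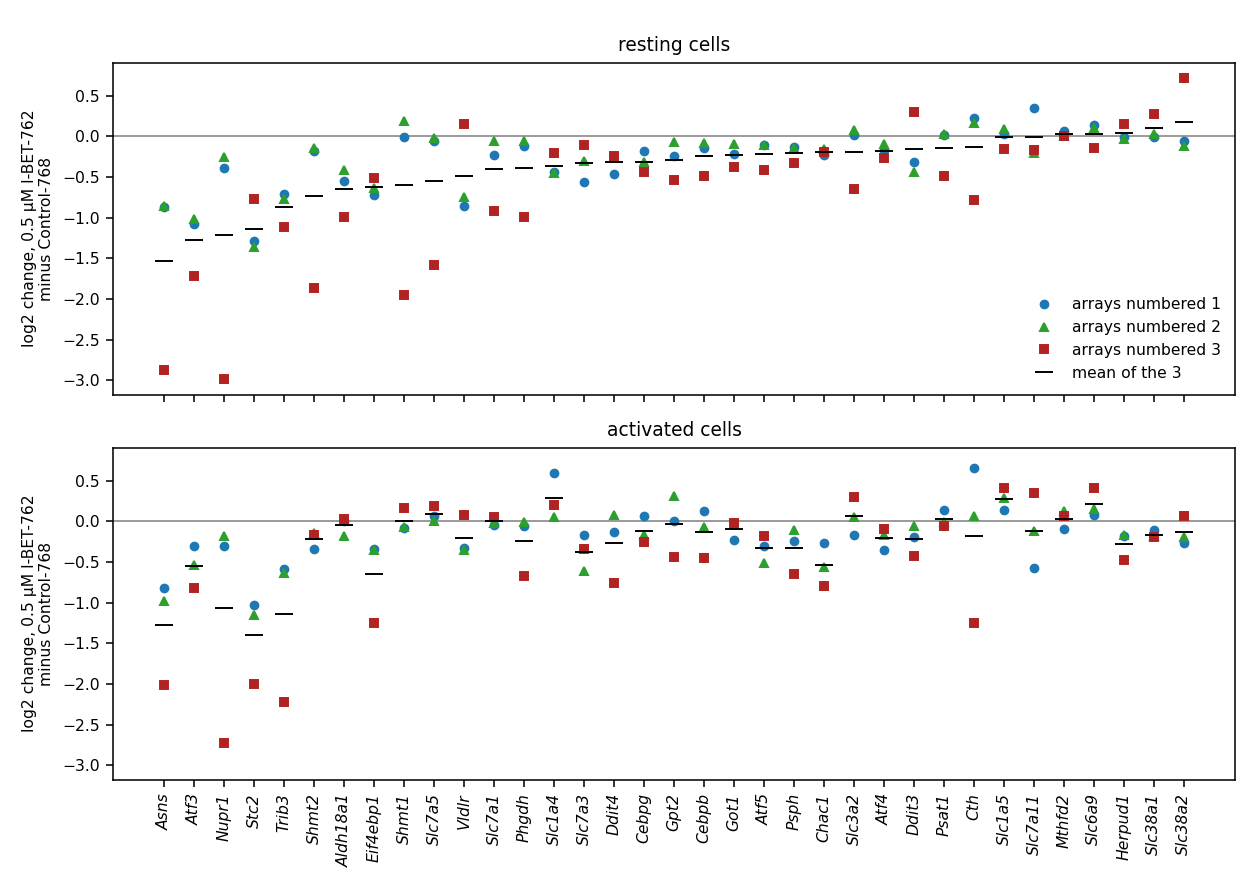
Log2 change at 0.5 µM I-BET-762 against Control-768 within each replicate number (symbols) and their mean (dash), for resting cells (top) and activated cells (bottom), with genes in the order of the resting mean. Asns, Atf3, Stc2 and Trib3 are below 0 in all 3 numbers of both states, while Nupr1, Shmt2, Shmt1 and Slc7a5 in resting cells lie much further below 0 in number 3 than in numbers 1 and 2.

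At 0.25 µM no member was called against Control-768 in resting or activated cells, in limma or under any alternative, against 0.066% and 0.0715% of all genes. An unadjusted p under 0.05 was reached by 1 member in resting (Mthfd2, 0.25 ± 0.12) and by 0 in activated cells. Among all 18193 genes 756 and 727 reached it. In resting cells the differences leaned upward, with 25 of 35 members positive, a median of 0.11 and 20 members higher in all 3 numbers. Control-768 against DMSO, with no inhibitor, also had 26 members positive in resting cells. Its median was 0.05, and 10 members were higher in all 3 numbers. At 0.25 µM Cth had the largest difference, 0.62, 1.13 and 2.08 within numbers 1, 2 and 3 (mean 1.27 ± 0.79), and Gpt2 followed with 0.47, 0.48 and 1.14. The Control-768 arrays are the same in the comparisons of both concentrations, so their values stand side by side here and are not independent. In activated cells the median was 0.03.

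Set directly against each other in resting cells, 0.5 µM was below 0.25 µM for 31 of the 35 members, with a median of -0.49 against 0.01 for all genes, and 29 members were lower in all 3 numbers. None passed in limma, where 0.066% of genes were called. An unadjusted p under 0.05 was reached by 16 members and by 1309 of the 18193 genes. With the block Atf3 (-1.17 ± 0.20, adjusted p = 0.00873), Aldh18a1 (-0.64 ± 0.13, 0.0232) and Asns (-1.75 ± 0.39, 0.0407) passed, among 1.16% of genes. In activated cells 29 members were lower at 0.5 µM, with a median of -0.20. None passed there, where 0.011% of genes were called. An unadjusted p under 0.05 was reached by 6 members and by 687 of the 18193 genes. With the block Stc2 alone passed (-1.20 ± 0.20, adjusted p = 0.0233), among 0.198% of genes.

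The response to I-BET-762 was not shown to differ between the states. The interaction of the pooled response with the state called 0 members and 0% of genes in limma. An unadjusted p under 0.05 was reached by 1 member, Herpud1 (-0.35 ± 0.16), and by 701 of the 18193 genes. Members lay between -0.62 (Cth) and 0.31 (Atf3). The median 95% interval of a member reached 0.54 to either side, so differences of that size could be missed. Control-768 against DMSO called 0 members and 0% of genes in resting cells and likewise in activated cells. An unadjusted p under 0.05 was reached by 0 members in both, and by 429 and 297 of the 18193 genes. The members lay between -0.28 and 0.29 in resting and between -0.24 and 0.27 in activated cells. Of the 35, 26 were positive in resting and 25 in activated cells, with medians of 0.05 and 0.02.

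Genes around the ATF4 pathway were followed through 5 lists. On restimulation in Control-768, 5 of 13 measured genes for eIF2, its kinases and its regulators rose and 0 fell, where 8.89% of all genes were called higher. Among them were subunits of the exchange factor of eIF2, Eif2b4 (0.61 ± 0.10, adjusted p = 0.000305) and Eif2b1 (0.57 ± 0.11, adjusted p = 0.00144), and Impact, an inhibitor of the kinase GCN2 (0.78 ± 0.15, adjusted p = 0.00113). Of 20 genes for chaperones of the endoplasmic reticulum and the IRE1 and ATF6 arms, 9 rose and 0 fell, with a median of 0.35. The strongest were Hspa5, which encodes BiP (0.77 ± 0.12, adjusted p = 0.000159), Dnajb11 (0.48 ± 0.10, adjusted p = 0.00180) and Hyou1 (0.69 ± 0.15, adjusted p = 0.00213).

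Of 19 cytosolic tRNA synthetases 1 rose (Rars, 0.64 ± 0.20) and 2 fell (Qars, -0.45 ± 0.14, and Sars, -0.45 ± 0.15), where 11.2% of all genes were called lower. Of 12 folate, methionine and glutathione enzymes 1 rose, Gclc of glutathione synthesis (0.69 ± 0.15). Of 18 genes of amino acid sensing by mTORC1, 2 rose and 5 fell, among them the leucine sensor family member Sesn1 (-1.32 ± 0.20, adjusted p = 0.000176) and Nprl2 and Depdc5 of the GATOR1 complex (-0.87 ± 0.18 and -0.50 ± 0.15). With both I-BET-762 concentrations pooled, Dnajb11 (0.28 ± 0.07, adjusted p = 0.0375) and the Rag GTPase gene Rragd (-0.78 ± 0.17, adjusted p = 0.0182) were the only listed genes called in resting cells, and 0 were called in activated cells. With the replicate block within each state, the resting cells added 1 higher gene of the eIF2 list and 2 lower genes of the folate list. In activated cells 2 genes of the chaperone list and 1 of the mTORC1 list passed. Of all genes, 5.68% were called in the resting and 4.19% in the activated cells of that fit.

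The counts on restimulation differed between conditions, and those differences were not tested. Of all genes, 9.15% were called higher and 11.7% lower in DMSO. These shares were 7.07% and 7.41% in 0.25 µM, and 10.5% and 12.8% in 0.5 µM. Chaperones had 8 higher and 0 lower in DMSO, and 5 higher and 1 lower in each concentration of I-BET-762. Synthetases had 2 higher and 1 lower in DMSO, 0 and 2 in 0.25 µM, and 7 and 2 in 0.5 µM, where 10.5% of all genes were called higher. The eIF2 list had 4 and 0 in DMSO, 3 and 0 in 0.25 µM, and 4 and 1 in 0.5 µM, and the mTORC1 list 1 and 4, 0 and 5, and 1 and 4 in the same order.

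Single arrays or the probe set decided some of these calls. On restimulation the call was lost for Rars without any array but resting 1 (adjusted p = 0.0508 to 0.0930), for Qars without resting 1 or 2 or activated 3 (0.0756 to 0.171), for Sars without resting 1 or 2 or activated 2 or 3 (0.0595 to 0.221), and for Depdc5 without resting 1 or 2 or activated 3 (0.0807 to 0.0900). In pooled resting cells Dnajb11 lost it without array 1 or 2 of DMSO, Control-768 or 0.5 µM or array 1 or 3 of 0.25 µM (0.0692 to 0.122), and Rragd without DMSO 1 or 2, Control-768 2, or array 1 of either concentration (0.0506 to 0.0634). Without probe sets that can match several transcripts, Hyou1 (0.29, adjusted p = 0.371) and Qars (-0.24, 0.359) lost their calls, and with all probe sets averaged Impact (0.42, 0.163), Depdc5 (-0.20, 0.146) and Rragd (-0.26, 0.156) did. With 1 Control-768 array left out, the genes called on restimulation numbered 3 to 5 for the eIF2 list (5 with all arrays; lowest without resting 3), 6 to 8 for chaperones (9; lowest without resting 1 or activated 3), 0 to 2 for synthetases (3; lowest without resting 2 or activated 3), and 2 to 6 for mTORC1 sensing (7). The last was 3 without resting 1, resting 2 or activated 2, 4 without activated 1, and 2 without activated 3. For folate enzymes it was 2 without activated 1 and 1 otherwise. The synthetases numbered 1 without resting 1 or activated 2, and 2 without resting 3 or activated 1. Without all arrays numbered 3, the counts were 5 higher and 2 lower for the eIF2 list, 9 and 2 for chaperones, and 4 and 3 for synthetases. They were 1 and 0 for folate enzymes, and 3 and 6 for mTORC1 sensing. In that fit 10.6% of all genes were called higher and 16.4% lower.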

How the data were processed

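RNA of 24 samples was measured on a mouse expression array. The authors' deposited table holds 1 intensity on a linear scale for each of 45101 probe sets; the sources used here do not give how these were summarised and normalized. The median intensity of an array was 37.4 to 44.4. A probe-to-gene annotation gives 1 symbol to 34958 probe sets, several to 932 and no symbol to 9211. Values were transformed here as log2(intensity + 16), with the brightest single-symbol probe set standing for a gene.

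One limma model (version 3.58.1, R 4.3.3) with a mean for each of the 8 groups took all 24 arrays, with 16 residual and 3.58 prior degrees of freedom. P-values are two-sided and adjusted over 18193 genes in each of 15 comparisons; the code was tested on simulated data. Precision is limited by having 3 arrays a group.

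The members and gene lists were chosen with earlier results of these data known. All measured members enter the counts and ranges, though not every change of every member is printed. Array values are given for members called on restimulation in Control-768 or at an I-BET-762 concentration against the controls. They are also given for others singled out after their values were seen. Outside the members, up to 3 called genes per list are named. Replicate numbers paired samples within a state (36 of 36 pairs correlated above 0.1). Across states the correlations were weaker, with 16 of 48 pairs above 0.1. Number 1 had 9 of 16 (0.034 to 0.186), number 3 had 7 of 16 (0.044 to 0.155) and number 2 had 0 of 16 (-0.050 to 0.084). The main fit has no block, so it leaves out the pairing within a state as well as the weaker one across states. The pairing within a state enters only the alternatives with a block. Alternatives changed the constant, normalization, probe sets, filter, samples and block.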

Additional observations from a re-analysis of the deposited data

How the results depend on the processing

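No comparison at 0.25 µM against Control-768, no interaction and no comparison of Control-768 with DMSO called a member under any alternative. A percentage after a count is the share of all genes called under the same setting. For settings without a percentage that share is not given here. The number of members called on restimulation in Control-768 (9) became 14 among genes with a mean of at least 64. It became 16 with the replicate block over both states (25.4%) and 18 without all arrays numbered 3 (27%). With 1 array left out it became 5 to 8. In DMSO (10) it became 6 with only the groups compared and 16 with the replicate block over both states (26.3%). With 1 array left out it became 6 to 11 there. In 0.25 µM (6) it became 12 without the arrays numbered 3 and 1 to 5 with 1 array left out, and in 0.5 µM (13) it became 3 with only the groups compared and 5 to 14 with 1 array left out. At 0.5 µM in resting cells (1) it was 0 with the constant 1 and with only the groups compared, and 2 with quantile normalization. It was 3 with the block over both states (3.15%) and 5 with the replicate block within each state (5.54%). Without the arrays numbered 3 it was 4 (4.07%), and with 1 array left out 0 to 1. In activated cells (1) it was 0 with only the groups compared and 3 with the block within each state (3.37%). Without the arrays numbered 3 it was 2 (2.75%), and with 1 array left out 0 to 1. Pooled resting cells (1) gave 0 with the constant 1 and with only the groups compared. They gave 2 with the block within each state (5.68%) and 5 without the arrays numbered 3. Pooled activated cells (1) gave 0 with the constant 64 and with only the groups compared. They gave 2 with the block within each state (4.19%) and 2 without the arrays numbered 3. Both pooled comparisons gave 0 to 1 with 1 array left out. Between the concentrations (0), resting cells gave 1 with the block over both states (0.418%) and 3 with the block within each state (1.16%). They gave 1 without the arrays numbered 3. Activated cells gave 1 with the block over both states (0.0879%) and 1 with the block within each state (0.198%). In comparisons within a state the block changed no other call of a member. Direction turned for Slc6a9 in Control-768 (0.053) and Vldlr in 0.5 µM on restimulation (0.29) when probe sets ending in _s_at, _x_at or _a_at were left out, which put a dimmer probe set in place; the cause of the other shifts was not tested. For the genes named from the 5 lists, which were put through the same alternatives after seeing the data, no direction turned, though several calls were lost, as given beside them. What the replicate numbers stand for and how the values were normalized limit every result, and small changes of dim genes carry little information.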
